A study of Mus with 12 samples.

Results

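The circadian clock genes described here are Arntl, Npas2, Clock, Per1, Per2, Per3, Nr1d1, Nr1d2, Dbp and Ciart, 10 of the 19505 genes measured in mouse kidney. They were found by their symbol in the annotation of the array, with the highest-mean probe set taken for a gene with several, and each of the 10 genes had 1 probe set. The genes were selected on what clock genes are known to do and on measured values, since the choice was made with results of these data known. Ciart had been seen to differ between the control groups, so its difference there is given as a description though counts over the 10 genes include it. Shares of all genes set beside such counts are descriptions too, since the choice of genes was not independent of the data.

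Kidney RNA of 12 male mice aged 6 months was hybridised to Clariom S arrays, 1 array per mouse and 3 arrays per group. KO AKI mice were homozygous Apobec-1 knockouts that received cisplatin, a platinum drug that injures the kidney tubule, as a single subcutaneous dose of 15 mg/kg, and their kidneys were taken 3 days later. WT AKI mice were wild type and received the same dose. KO control and WT control mice received saline, the solvent of the cisplatin. All mice were of the C57Bl/6j background, to which the KO line had been backcrossed. By the labels, the KO mice were bred in the laboratory and the other C57Bl/6j mice were bought, and if so, the origin of the mice and the genotype cannot be told apart. The mice lived under a cycle of day and night with free access to food. Neither the labels nor the methods give the hour at which kidneys were taken, so a difference in that hour and a difference between groups cannot be told apart for genes with a daily rhythm.

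The circadian clock is a feedback loop of transcription found in nearly all cells, including those of the kidney tubule. BMAL1, the protein of Arntl, pairs with CLOCK or its relative NPAS2 and binds E-box elements to activate the Per and Cry genes, Nr1d1, Nr1d2, Dbp and Ciart. PER and CRY proteins then inhibit the pair, and REV-ERBα and REV-ERBβ, the proteins of Nr1d1 and Nr1d2, repress Arntl. Arntl RNA is therefore high at a time of day when RNA of Dbp and of the Per genes is low. In the kidney the clock is known for daily rhythms of salt and water transport.

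Values are log2 signals as deposited, where 1 unit is a doubling of signal, and levels of different probe sets are not compared. Background was taken from 23 antigenomic probe sets, designed to find no target in the genome, as their 95th percentile on each array, and its group means lay between 6.23 and 6.39. Clock, Per3, Nr1d1, Nr1d2 and Dbp lay above background on all 12 arrays. Per2 did so on 11 arrays, Arntl on 8, Per1 on 4, Ciart on 3 and Npas2 on 2. Medians of the arrays lay between 5.79 and 6.00. KO AKI replicate 2 stood apart from its group, with lower signals of all 6 proximal tubule markers, and counts that it moves are given without it too. Apobec1, the disrupted gene, had mean signals of 8.52 on KO AKI, 8.64 on WT AKI, 7.58 on KO control and 7.04 on WT control arrays, so its probe set does not check the genotype. Genes are named as called where limma gave an adjusted p under 0.05 (Benjamini-Hochberg over all genes), and differences are given with their standard error (SE).

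**Figure D1:**
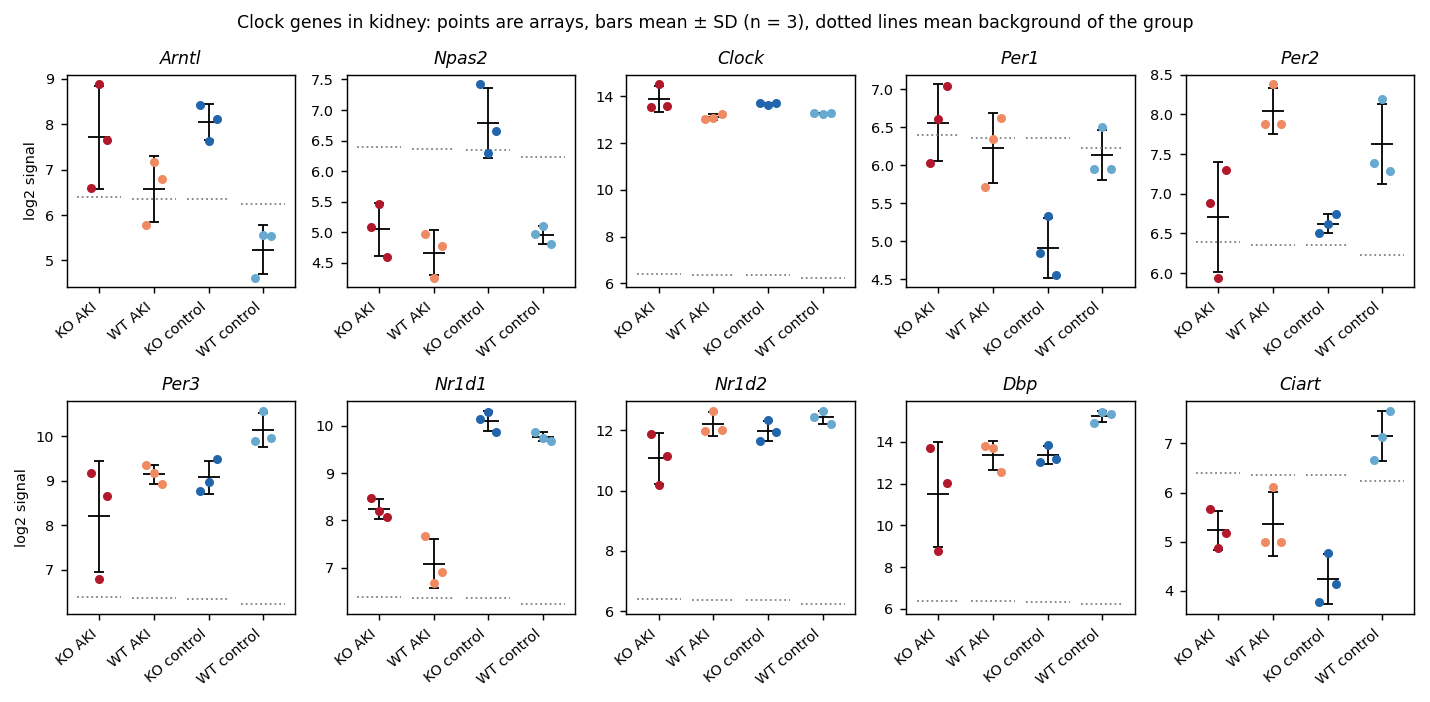
Log2 signal (vertical axis) of the 10 clock genes in the groups KO AKI, WT AKI, KO control and WT control. Points are arrays, horizontal and vertical bars are the mean and SD (n = 3), dotted lines are the mean background of the group, and each gene has its own axis. Arntl and Npas2 were higher on every KO control array than on any WT control array, and Per1, Per2, Per3, Dbp and Ciart were lower.

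Without cisplatin, all 3 activators of the clock had higher signals in KO than in WT kidneys and 5 of the 7 other genes had lower ones, on every array, though only the difference of Ciart was called. The KO control and WT control arrays did not overlap for 8 of the 10 clock genes, against 14.6% of all genes. Arntl, Npas2 and Clock were higher on all KO control arrays, a direction without overlap seen in 7.25% of genes. Per1, Per2, Per3, Dbp and Ciart were lower on all KO control arrays, as were 7.37% of genes. By the adjusted p, Ciart alone of the 10 genes was called, against 0.0513% of all genes. An unadjusted p under 0.05 was reached by 7 of the 10, against 6.17%. The 10 genes were chosen with results of these data known, and the difference of Ciart was among them. These shares therefore cannot test whether the clock genes differed more often than other genes.

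Arntl, which encodes the activator BMAL1, had log2 signals of 8.42, 7.63 and 8.11 on KO control arrays, against 4.62, 5.55 and 5.53 on WT control arrays. All KO control arrays lay above background and no WT control array did. The bound is therefore at least 3.54-fold higher in KO control kidneys, set against the mean background of the WT control arrays. The fitted log2 difference was 2.82 (SE 0.50, adjusted p = 0.0823), which ranks 15 by p over all genes and did not pass the threshold.

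Npas2, the relative of Clock, had log2 signals of 7.42, 6.30 and 6.65 on KO control arrays and 4.97, 5.11 and 4.82 on WT control arrays. Its signal passed background on 2 KO control arrays and on 0 WT control arrays, which gives a bound of at least 1.47-fold higher. Its fitted log2 difference was 1.83 (SE 0.30, adjusted p = 0.0575). The gene Clock itself had 13.72, 13.65 and 13.70 on KO control arrays and 13.28, 13.25 and 13.31 on WT control arrays. These groups did not overlap, but were close, with a signal 1.33-fold higher in KO control kidneys (SE 0.24 on the log2 scale, adjusted p = 0.880), and the SE pools the spread of all groups, while the SD was 0.04 in KO control and 0.03 in WT control kidneys.

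The Per genes encode the PERIOD proteins that inhibit the activators. Per2 had log2 signals of 6.51, 6.62 and 6.74 on KO control arrays, against 7.39, 8.20 and 7.29 on WT control arrays. Per3 had 8.76, 8.97 and 9.49 on KO control arrays, against 9.88, 10.57 and 9.96 on WT control arrays. No array overlapped for either gene, and the log2 differences of -1.001 for Per2 (SE 0.33, adjusted p = 0.605) and -1.06 for Per3 (SE 0.46, adjusted p = 0.762) were not called. Per1 had 4.85, 5.33 and 4.56 on KO control arrays and 5.95, 6.51 and 5.95 on WT control arrays. Only 1 of these 6 arrays lay above background, so no fold is given for Per1 (fitted log2 difference -1.22, SE 0.31, adjusted p = 0.381).

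Dbp, which encodes a transcription factor that passes the rhythm on to other genes, had log2 signals of 13.04, 13.87 and 13.20 on KO control arrays, against 14.92, 15.44 and 15.33 on WT control arrays. The groups were apart by more than 1 log2 unit, and the mean was 3.63-fold lower in KO control kidneys. Its fitted log2 difference of -1.86 had an SE of 0.85 and an adjusted p of 0.798. The shared spread includes the wide KO AKI group (SD 2.51), while the SD of Dbp was 0.44 in KO control and 0.27 in WT control kidneys. A fit of the control groups alone called Dbp together with Arntl, Npas2 and Ciart, against 0.108% of all genes. Of the 20 alternatives it was the 1 that called Dbp between the control groups.

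Ciart, which encodes the repressor CHRONO that binds BMAL1, had log2 signals of 3.78, 4.78 and 4.15 on KO control arrays, against 6.65, 7.13 and 7.67 on WT control arrays. It was above background on WT control arrays only, and lower in KO control kidneys by at least 1.74-fold. Nr1d1 and Nr1d2, the REV-ERB repressors of Arntl, overlapped between the control groups. Nr1d1 had 10.16, 10.30 and 9.87 on KO control arrays and 9.88, 9.74 and 9.69 on WT control arrays, a log2 difference of 0.34 (SE 0.25, adjusted p = 0.934, 95% interval -0.19 to 0.87). Nr1d2 had 11.66, 12.33 and 11.93 on KO control arrays and 12.45, 12.64 and 12.19 on WT control arrays, a log2 difference of -0.46 (SE 0.35, adjusted p = 0.939, 95% interval -1.21 to 0.30).

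The count of called clock genes between the control groups moved with single arrays. With KO control replicate 1 or WT control replicate 3 left out it was 0, against 0.00513% and 0.0154% of all genes. With KO AKI replicate 2 left out, an array that enters through the shared spread, it was 3, against 0.138% of all genes. It was 2 without KO control replicate 2 (0.0513% of all genes) and without KO AKI replicate 1 (0.0564%) or 3 (0.0615%).

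Markers of other cell types and of injury differed in mean signal between the control groups too, but by limma 0 of those given here were called. Adipocyte markers averaged 4.10 to 5.34 on KO control arrays and 5.62 to 6.497 on WT control arrays. Of the 2 adipocyte markers, Adipoq, the gene of adiponectin, passed background on 1 KO control and 3 WT control arrays, and Plin1 on none. The 3 endothelial markers averaged 10.43 to 10.98 on KO control arrays and 9.35 to 10.18 on WT control arrays. The 3 tubule injury markers averaged 6.08 to 6.65 on KO control arrays and 7.19 to 8.28 on WT control arrays. Of these, Krt20 lay above background on no control array. The 6 proximal tubule markers averaged 16.7 to 16.8 on KO control and 16.6 to 16.7 on WT control arrays, and these ranges overlapped. The part of all these markers in the differences of the clock genes was not tested. In whole kidney RNA, fewer cells of a type and less RNA per cell cannot be told apart.

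After cisplatin the difference between the genotypes had the same sign as without it for 9 of the 10 clock genes, but none was called. Of the 9, Npas2 and Ciart lay above background on no array of either cisplatin group. The KO AKI and WT AKI arrays did not overlap for Clock and Nr1d1, which were higher in KO AKI kidneys, and for Per2 and Nr1d2, which were lower. These 4 of 10 genes stand against 17.2% of all genes. By limma 0 of the 10 clock genes were called, against 0.487% of all genes, and 6 of the 10 had an unadjusted p under 0.05, against 15.3%.

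Signals of Nr1d1 were 8.48, 8.19 and 8.08 on KO AKI arrays, against 7.67, 6.68 and 6.91 on WT AKI arrays. Its difference of 1.17 (SE 0.25) missed the threshold at an adjusted p of 0.0527. Per2 had 6.89, 5.94 and 7.30 on KO AKI arrays, against 7.87, 8.38 and 7.87 on WT AKI arrays, a difference of -1.33 (SE 0.33, adjusted p = 0.0766). Every WT AKI array lay above every KO AKI array for Per2.

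Clock signals were 13.53, 14.52 and 13.60 on KO AKI arrays and 13.03, 13.09 and 13.26 on WT AKI arrays, a difference of 0.75 (SE 0.24, adjusted p = 0.146). Nr1d2 had 11.88, 10.20 and 11.13 on KO AKI arrays and 11.96, 12.65 and 12.02 on WT AKI arrays, a difference of -1.14 (SE 0.35, adjusted p = 0.141). For both genes the KO AKI array farthest from the WT AKI arrays was replicate 2.

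Arntl was wide in the KO AKI group, with log2 signals of 6.60, 8.88 and 7.65, and overlapped the WT AKI signals of 5.77, 7.17 and 6.78. Its difference was 1.14 (SE 0.50, adjusted p = 0.294), and 2 of 3 WT AKI arrays and all KO AKI arrays lay above background. Npas2 lay above background on no array of either cisplatin group (5.05 ± 0.43 in KO AKI and 4.67 ± 0.37 in WT AKI kidneys, SD, n = 3 each), so no fold is given. Dbp had 13.69, 8.76 and 12.04 on KO AKI arrays, against 13.83, 13.70 and 12.57 on WT AKI arrays. KO AKI replicate 2 was far below all other arrays for Dbp, and the difference of -1.87 (SE 0.85) had an adjusted p of 0.313.

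Signals of Per3 were 9.16, 6.80 and 8.65 on KO AKI arrays and 9.35, 9.16 and 8.92 on WT AKI arrays (difference -0.94, SE 0.46, adjusted p = 0.350). Per1 averaged 6.56 ± 0.50 in KO AKI and 6.23 ± 0.46 in WT AKI kidneys (SD, n = 3 each), close to background in both. Ciart averaged 5.23 ± 0.40 in KO AKI and 5.36 ± 0.64 in WT AKI kidneys (SD, n = 3 each), below background on all 6 arrays. Per1 was the 1 clock gene whose genotype difference had opposite signs with and without cisplatin.

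Without KO AKI replicate 1, 6 clock genes were called between the cisplatin groups, namely Arntl, Clock, Per2, Nr1d1, Nr1d2 and Dbp, and the share called among all genes was then 6.02%. Without WT AKI replicate 1, Nr1d1 was called, against 0.226% of all genes. Without KO AKI replicate 2, 0 were called by limma, and the log2 difference of KO AKI from WT AKI was 0.55 for Arntl, -0.24 for Per3, -0.70 for Nr1d2 and -0.50 for Dbp, smaller than with it. For Nr1d1 it was then 1.20, for Clock 0.43 and for Per2 -0.95, and for Ciart it turned to 0.052.

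**Figure D2:**
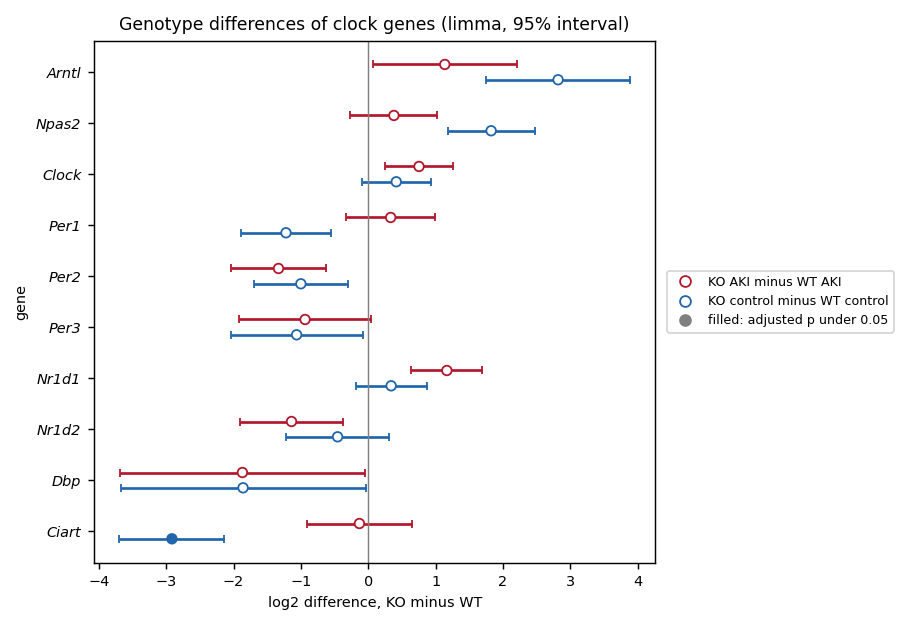
Log2 difference of KO from WT (horizontal axis) for each clock gene (vertical axis), after cisplatin in red and without it in blue. Circles are limma estimates from 3 arrays per group, bars are 95% intervals, and filled circles had an adjusted p under 0.05. Arntl, Npas2, Clock and Nr1d1 lie to the right of 0 in both comparisons, and Per2, Per3, Nr1d2, Dbp and Ciart to the left. Npas2 and Ciart lay above background on no array of either cisplatin group.

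The genotype comparisons with and without cisplatin share no arrays. The difference had the same sign in both for 9 of the 10 clock genes and for 51.0% of all genes. Of the 9, Npas2 and Ciart lay above background on no KO AKI or WT AKI array, so their signs there rest on signals within background. The sign of Ciart between the control groups was known beforehand. Without KO AKI replicate 2, 8 of the 10 kept one sign. Averaged over the treatments, a comparison added after the values were seen, 9 of the 10 genes had an unadjusted p under 0.05, against 11.3% of all genes. Ciart was called, against 0.103% of all genes, on values that include its known difference between the control groups. The averaged log2 difference of KO from WT was 1.98 for Arntl (SE 0.35, adjusted p = 0.0527), 1.10 for Npas2 (SE 0.21, adjusted p = 0.0671) and -1.17 for Per2 (SE 0.23, adjusted p = 0.0725). Dbp had the widest interval, with an averaged difference of -1.86 (95% interval -3.15 to -0.58, adjusted p = 0.292). With KO AKI replicate 1 left out this comparison called 7 clock genes and 1.69% of all genes, and with KO AKI replicate 2 left out it called 3 and 0.344%. It called 0 when KO AKI replicate 3, WT AKI replicate 2 or 3, KO control replicate 1 or 3, or a WT control array was left out.

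**Figure D3:**
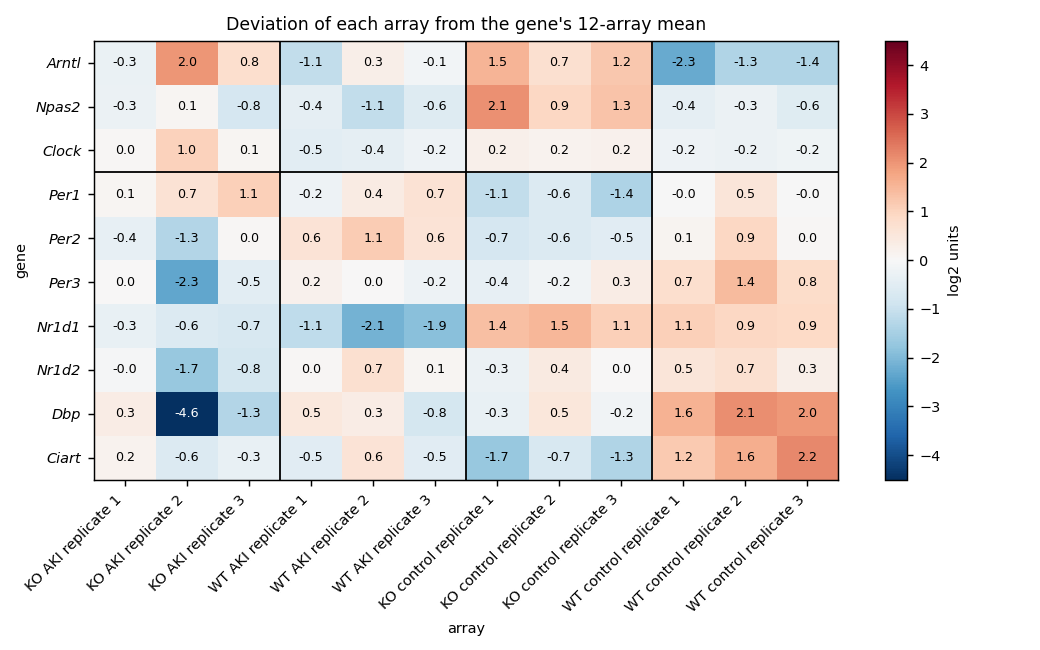
Deviation in log2 units (colour and printed value) of each of the 12 arrays (columns) from the 12-array mean of each clock gene (rows), with activators above the horizontal line and the other genes below it. WT control arrays are low for Arntl and high for Per3, Dbp and Ciart, and KO AKI replicate 2 is the highest array for Arntl and Clock and the lowest for Per2, Per3, Nr1d2 and Dbp.

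KO AKI replicate 2 stood apart within its group, with high Arntl and Clock and low Dbp, Per3, Nr1d2 and Per2. Set against KO AKI replicates 1 and 3 together, it was higher by 1.75 log2 units for Arntl, 0.96 for Clock and 0.61 for Npas2. Of the 7 other clock genes, 6 were lower on it and Per1 was not, with differences of -4.11 for Dbp, -2.11 for Per3, -1.31 for Nr1d2 and -1.15 for Per2. Nr1d1 differed by -0.08 and Ciart by -0.55, and Npas2 and Ciart lay above background on no KO AKI array. KO AKI replicate 2 was lower for all 6 proximal tubule markers, with a median difference of -3.94, while the median over all genes was 0.02. The part of this in its clock gene values was not tested.

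Nr1d1 fell after cisplatin in both genotypes. Nr1d1 averaged 8.25 ± 0.21 in KO AKI and 10.11 ± 0.22 in KO control kidneys (SD, n = 3 each), and was 3.62-fold lower after cisplatin (SE 0.25 on the log2 scale, adjusted p = 0.000158). In WT kidneys it averaged 7.08 ± 0.52 with cisplatin and 9.77 ± 0.10 without (SD, n = 3 each), and was 6.43-fold lower (SE 0.25 on the log2 scale, adjusted p = 2.4e-05). The AKI and control arrays did not overlap in either genotype, and both calls held in all 20 alternative analyses.

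In KO kidneys 3 of the 10 clock genes were called, Npas2 and Nr1d1 lower and Per1 higher, close to the 27.9% called among all genes. The KO AKI and KO control arrays did not overlap for 4 of the 10, against 41.4% of all genes. The signals of Npas2 were 5.09, 5.46 and 4.60 on KO AKI arrays, against 7.42, 6.30 and 6.65 on KO control arrays. It fell by at least 1.32-fold, since no KO AKI array lay above background (fitted log2 difference -1.74, SE 0.30, adjusted p = 0.000983). Per1 had 6.03, 6.62 and 7.04 on KO AKI arrays, against 4.85, 5.33 and 4.56 on KO control arrays. It rose by at least 1.15-fold, since no KO control array lay above background (fitted log2 difference 1.65, SE 0.31, adjusted p = 0.00174). The other log2 differences in KO kidneys were not called, among them -0.34 for Arntl (SE 0.50, adjusted p = 0.646) and -1.87 for Dbp (SE 0.85, adjusted p = 0.116), and that of Arntl turned to 0.21 without KO AKI replicate 1. The count of called genes was then 6, against 28.9% of all genes. With KO AKI replicate 2 left out it was 4, against 22.9%, with Ciart added, and the difference was -0.51 for Dbp, -0.93 for Arntl and -0.16 for Per3.

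In WT kidneys 2 of the 10 clock genes were called, Nr1d1 and Ciart, both lower, against 14.0% of all genes. The WT AKI and WT control arrays did not overlap for 5 of the 10, against 39.7%. Ciart had log2 signals of 4.99, 6.10 and 4.99 on WT AKI arrays, against 6.65, 7.13 and 7.67 on WT control arrays. It fell by at least 1.73-fold (fitted log2 difference -1.79, SE 0.36, adjusted p = 0.00615), and the WT control arrays are those of its known difference between the control groups. Arntl was above background on 2 WT AKI arrays and on 0 WT control arrays, with a bound of at least 1.27-fold higher after cisplatin (fitted log2 difference 1.34, SE 0.50, adjusted p = 0.0878). Dbp was lower on all WT AKI arrays than on any WT control array, with a log2 difference of -1.87 (SE 0.85, adjusted p = 0.158). In WT kidneys 5 of the 10 genes, and 20.7% of all genes, were called without KO AKI replicate 2.

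Clock, Per2 and Nr1d2 overlapped between AKI and control arrays in both genotypes. Their log2 differences in KO kidneys were 0.19 for Clock (95% interval -0.32 to 0.70), 0.08 for Per2 (95% interval -0.62 to 0.78) and -0.90 for Nr1d2 (95% interval -1.66 to -0.15). In WT kidneys they were -0.15 for Clock (95% interval -0.66 to 0.36), 0.42 for Per2 (95% interval -0.28 to 1.12) and -0.22 for Nr1d2 (95% interval -0.98 to 0.54). None of these was called. With KO AKI replicate 2 left out, the values in KO kidneys were -0.13 for Clock, 0.47 for Per2 and -0.47 for Nr1d2. The direction for Clock and Per1 in WT kidneys and for Per2 in KO kidneys turned under another scaling of the arrays.

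**Figure D4:**
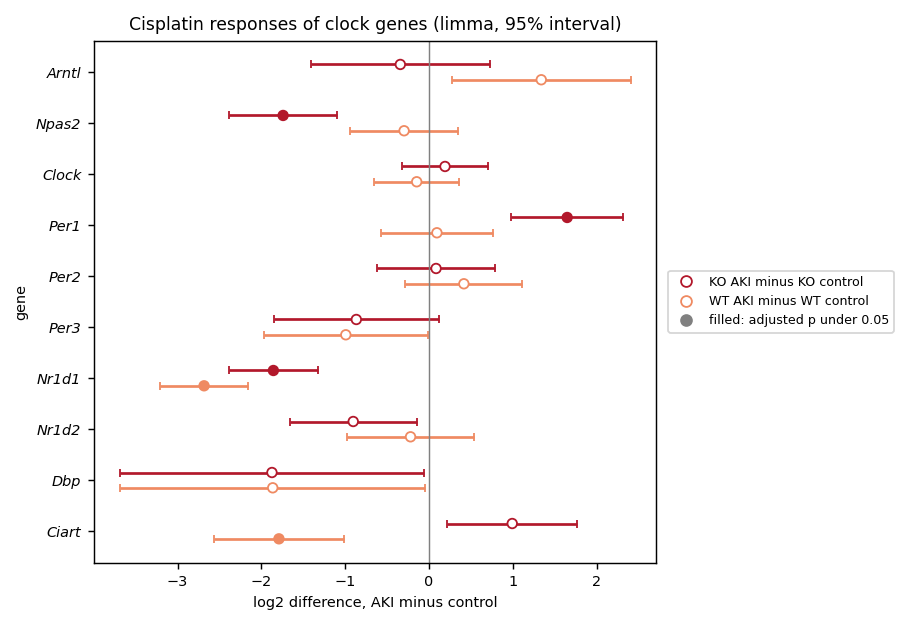
Log2 difference of AKI from control (horizontal axis) for each clock gene (vertical axis), in KO kidneys in dark red and in WT kidneys in orange. Circles are limma estimates from 3 arrays per group, bars are 95% intervals, and filled circles had an adjusted p under 0.05. Nr1d1 is filled in both genotypes, Npas2 and Per1 in KO kidneys, and Ciart in WT kidneys, where it lies on the other side of 0 than in KO kidneys, in which it was below background.

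An interaction term of the fit asked whether KO and WT kidneys responded differently to cisplatin. By limma 0 of the 10 clock genes were called, against 0.0308% of all genes, and 5 had an unadjusted p under 0.05, against 10.4%. These were Arntl, with a response lower in KO kidneys by a log2 difference of -1.68 (SE 0.70, adjusted p = 0.436), Npas2 with -1.44 (SE 0.43, adjusted p = 0.279), Per1 with 1.55 (SE 0.44, adjusted p = 0.249), Nr1d1 with 0.83 (SE 0.35, adjusted p = 0.439) and Ciart. The responses of Dbp were nearly equal in the estimate, with an interaction of -0.01, but its SE was 1.20. Its sign turned with median centring of the arrays. Leaving out KO AKI replicate 1 gave 2 called genes, against 1.73% of all genes, and leaving out KO AKI replicate 2 gave 1, against 0.226%.

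The cisplatin groups also differed in injury. The 6 proximal tubule markers averaged 10.2 to 15.3 on KO AKI, 15.8 to 16.3 on WT AKI, 16.7 to 16.8 on KO control and 16.6 to 16.7 on WT control arrays. The 3 tubule injury markers averaged 16.02 to 19.27 on KO AKI, 13.20 to 15.18 on WT AKI, 6.08 to 6.65 on KO control and 7.19 to 8.28 on WT control arrays. Their part in the cisplatin responses of the clock genes was not tested.

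Other genes of the clock loop, from a list of 17 of which 15 were measured, showed no call between genotypes. In KO control against WT control kidneys 13 of the 15 were lower, with a median log2 difference of -0.20, against a median over all genes of -0.00. By limma 0 were called there, and 0 had an unadjusted p under 0.05. Among the 13 lower genes were 4 that lay above background on no array, Arntl2, Rorb, Tef and Timeless. Cry1, also lower, lay above it on no control array. The signs of these genes rest on signals within background. In KO AKI against WT AKI kidneys 0 were called by limma and 3 had an unadjusted p under 0.05, with a median of -0.10. With KO AKI replicate 2 left out, 1 did.

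After cisplatin 5 of these 15 genes rose and 3 fell in KO kidneys, with a median log2 difference of 0.72, and 3 rose and 1 fell in WT kidneys, with a median of 0.04. Called genes were 27.9% of all genes in KO and 14.0% in WT kidneys, and the median over all genes was 0.06 in both. Leaving out KO AKI replicate 2, 4 rose and 1 fell in KO kidneys, and 3 rose and 3 fell in WT kidneys. Called genes were then 22.9% of all genes in KO and 20.7% in WT kidneys. Bhlhe40, which encodes the clock repressor DEC1, rose in both genotypes. It averaged 14.25 ± 0.16 in KO AKI and 11.85 ± 0.26 in KO control kidneys (SD, n = 3 each), 5.28-fold higher (SE 0.28 on the log2 scale, adjusted p = 5.8e-05). In WT kidneys Bhlhe40 averaged 14.36 ± 0.36 with cisplatin and 12.05 ± 0.58 without (SD, n = 3 each), 4.96-fold higher (SE 0.28 on the log2 scale, adjusted p = 0.000237).

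Cry1, a partner of the PER proteins, rose in WT kidneys by at least 1.83-fold (fitted log2 difference 1.33, SE 0.29, adjusted p = 0.00897), since no WT control array lay above background. Its fitted log2 difference in KO kidneys was 0.75 (SE 0.29, adjusted p = 0.0687). Hlf, a transcription factor of the same family as Dbp, fell in KO kidneys by a log2 difference of -2.63 (SE 0.71, adjusted p = 0.0148). Its signals were 7.97, 4.27 and 8.10 on KO AKI arrays, and without KO AKI replicate 2 the difference was -1.37 (SE 0.23, adjusted p = 0.000723). Its difference in WT kidneys was -1.35 (SE 0.71, adjusted p = 0.224). Fbxl21, a subunit of a ubiquitin ligase for CRY proteins, lay above background on control arrays only, and fell by at least 1.32-fold in KO (adjusted p = 0.0168) and 1.34-fold in WT kidneys (adjusted p = 0.0122). Its call was lost in KO kidneys without KO AKI replicate 2 (adjusted p = 0.0519) or KO control replicate 1 (adjusted p = 0.0815), and in WT kidneys without WT AKI replicate 3 (adjusted p = 0.0557). Timeless was below background on all 12 arrays, so its call is given no size.

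Of 10 genes known for a daily rhythm in the kidney, 8 were lower in KO control than in WT control kidneys, with a median log2 difference of -0.44, and 9 were lower in KO AKI than in WT AKI kidneys, with a median of -0.54. By limma 0 were called in either comparison. An unadjusted p under 0.05 was reached by 3 of the 10 between the control groups, against 6.17% of all genes, and by 4 between the AKI groups, against 15.3%. Without KO AKI replicate 2 the median between the AKI groups was -0.21. There 1 gene was called between the control groups, against 0.138% of all genes. Between the AKI groups 2 were called, both lower, without KO AKI replicate 1, where 6.02% of all genes were called. Of the 9 lower in KO AKI kidneys with all arrays, Aqp2 (-0.01), Scnn1a (-0.05) and Tspan4 (-0.08) differed by less than their SE. The count of 9 fell to 7 if WT AKI replicate 2, WT AKI replicate 3 or KO AKI replicate 1 was dropped. All 6 proximal tubule markers were lower in KO AKI than in WT AKI kidneys, with a median of -3.03. Their part in the differences of the rhythmic genes was not tested. Usp2, a deubiquitinase driven by the clock, was singled out after its values were seen. It averaged 10.37 ± 0.51 in KO control and 12.03 ± 0.21 in WT control kidneys (SD, n = 3 each), and its KO control arrays were all lower, as for 7.37% of all genes. Its fitted log2 difference of -1.65 was not called (SE 0.77, adjusted p = 0.817).

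After cisplatin some of these rhythmic genes were called. In KO kidneys 2 rose and 4 fell, with a median log2 difference of -1.17, and in WT kidneys 1 rose and 2 fell, with a median of -0.74, where 27.9% of all genes in KO and 14.0% in WT kidneys were called. With KO AKI replicate 2 left out the median in KO kidneys was -0.42. In WT kidneys 5 genes then fell, where 20.7% of all genes were called. The 4 collecting duct markers, of which Aqp2 is also in the rhythmic list, had median differences of -1.78 in KO kidneys, with 3 called, and -1.69 in WT kidneys, with 2 called. They averaged 8.10 to 10.36 on KO AKI, 9.27 to 9.94 on WT AKI, 10.98 to 11.63 on KO control and 11.20 to 11.64 on WT control arrays, and their part in the falls of Aqp4, Scnn1a and Avpr2 was not tested. Tspan4, a tetraspanin, rose in both, 6.63-fold in KO (adjusted p = 1.4e-05) and 2.97-fold in WT kidneys (adjusted p = 0.00247). Aqp4, a water channel, averaged 8.08 ± 0.81 in KO AKI and 12.11 ± 0.68 in KO control kidneys (SD, n = 3 each), and fell 16.3-fold (SE 0.45 on the log2 scale, adjusted p = 4e-05). Its log2 difference in WT kidneys was -1.30 (SE 0.45, adjusted p = 0.0710). Scnn1a, a subunit of the epithelial sodium channel, fell 2.96-fold in WT kidneys (SE 0.30 on the log2 scale, adjusted p = 0.00485). It was lower in KO kidneys too, at 10.88 ± 0.54 with cisplatin and 12.08 ± 0.45 without (SD, n = 3 each). Avpr2, the vasopressin receptor of the collecting duct, fell by at least 1.09-fold in KO (adjusted p = 0.000598) and 1.29-fold in WT kidneys (adjusted p = 0.0113), as no AKI array lay above background. Its call in WT kidneys was lost without WT AKI replicate 1 (adjusted p = 0.0502).

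Glucocorticoids, adrenal hormones with a daily rhythm, induce Per1 and other genes. Of 9 glucocorticoid-induced genes, 6 were lower in KO control than in WT control kidneys, with a median log2 difference of -0.80, and 4 had an unadjusted p under 0.05, against 6.17% of all genes. By limma 0 were called there, and 0 between KO AKI and WT AKI kidneys, where the median was 0.41 and 1 had an unadjusted p under 0.05. Between those groups 2 were called with KO AKI replicate 1 left out, where 6.02% of all genes were called. The median was 0.017 with KO AKI replicate 2 left out. After cisplatin 4 rose and 0 fell in KO kidneys, with a median of 0.82, and 1 rose and 0 fell in WT kidneys, with a median of 0.39, against 27.9% of all genes called in KO and 14.0% in WT kidneys. With KO AKI replicate 1 left out 3 rose in WT kidneys, where 15.9% of all genes were called. With KO AKI replicate 2 left out 2 rose there, where 20.7% of all genes were called. Fkbp5, a chaperone partner of the glucocorticoid receptor, averaged 15.267 ± 1.361 in KO AKI and 11.996 ± 0.415 in KO control kidneys (SD, n = 3 each), and rose 9.66-fold (SE 0.52 on the log2 scale, adjusted p = 0.000537). Zbtb16, a transcription factor, rose 6.59-fold in KO kidneys (SE 0.47 on the log2 scale, adjusted p = 0.00101). In WT kidneys the log2 differences were 0.96 for Fkbp5 (SE 0.52, adjusted p = 0.232) and 1.18 for Zbtb16 (SE 0.47, adjusted p = 0.110). Pdk4, a kinase that inhibits pyruvate dehydrogenase, rose in WT kidneys by 5.01 log2 units (SE 1.26, adjusted p = 0.0191). It lay above background on 1 of 3 WT control arrays, and its call was lost without WT AKI replicate 3 (adjusted p = 0.0812), WT control replicate 2 (adjusted p = 0.0683) or WT control replicate 3 (adjusted p = 0.0522). Pdk4 was higher in KO kidneys too, at 12.79 ± 3.06 with cisplatin and 6.51 ± 1.16 without (SD, n = 3 each). There 1 of 3 KO control arrays lay above background.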

How the data were processed

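RNA of 12 mouse kidneys was measured on Clariom S arrays, 3 per group, and groups were taken from the labels. Log2 signals of probe sets, summarised by the authors and deposited as 1 column per array, came from Transcriptome Analysis Console, as the submitters' processing notes say. The version, the background correction and the normalization are not given in the sources used here, and the values were used without further scaling. Of 28846 entries, 19572 had 1 gene symbol, and for 55 genes with several the brightest on average was used, leaving 19505 genes.

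A model with a mean for each group was fitted to all 12 arrays with limma 3.58.1 in R 4.3.3 (lmFit and eBayes, 8 residual and 5.6 prior degrees of freedom), two-sided, with Benjamini-Hochberg adjustment over all genes, and was tested on simulated data. With 3 arrays against 3, exact permutation cannot go below p = 0.1 and was not used. Where no array of a group lay above background, a fold is a bound, the mean of the brighter group against the mean, over the arrays of the dim group, of background or the probe set's own signal, whichever was higher. The number of arrays limits the precision.

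The members and the gene lists were chosen with earlier results of these data known. Beside the members, up to 2 called genes per direction with the smallest adjusted p were named from each list and comparison, and the 3 genes most and least like Arntl. Not all of them are printed. Alternatives were quantile normalization, median centring, array weights, a filter on dim genes, a trended and robust prior, all named probe sets in the fit, fits of the groups compared alone, a replicate block, and leaving out each array. Sequences and coordinates of the genes were not used here.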

Additional observations from a re-analysis of the deposited data

Results flagged for a closer look

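Ciart, the gene of the repressor CHRONO, was the clock gene whose arrays separated in opposite directions after cisplatin in the genotypes. The estimates of Arntl and Clock also had opposite signs, but their KO AKI and KO control arrays overlapped. All KO AKI arrays lay above all KO control arrays (5.23 ± 0.40 in KO AKI and 4.24 ± 0.51 in KO control kidneys, SD, n = 3 each), and all WT AKI arrays lay below all WT control arrays (5.36 ± 0.64 in WT AKI and 7.15 ± 0.51 in WT control kidneys, SD, n = 3 each). The interaction was 2.78 on the log2 scale (SE 0.51, unadjusted p = 9.7e-05 from limma), and its adjusted p of 0.0799 missed the threshold. Ciart lay above background on no KO AKI, WT AKI or KO control array, so the order of the KO groups and the size of the interaction rest on signals within background, and only the fall in WT kidneys has a bound. The interaction includes the difference between the control groups for which Ciart was known.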

How the results depend on the processing

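Over 20 alternatives, 12 of which left out 1 array, Nr1d1 in both cisplatin comparisons, Ciart in WT kidneys and Per1 in KO kidneys were called in all 20, and Npas2 in KO kidneys in all 19 that kept it. The filter on dim genes removed Npas2. Between KO AKI and WT AKI kidneys, 0 clock genes were called. The count was 1, Nr1d1, with median centring, the filter or the trended and robust prior, and 0 to 6 with an array left out. The share of all genes called was 0.487%, 0.543% with median centring, 1.85% with the filter and 0.574% with the trended prior. It was 0.0103% to 6.02% with an array left out. Between KO control and WT control kidneys, 1 was called, but 2 with median centring or the trended prior and 3 with array weights. The count was 4 in the fit of the groups compared alone, and 0 to 3 when an array was left out. Of all genes 0.0513% were called, 0.0615% with median centring, 0.0718% with the trended prior, 0.179% with array weights and 0.108% in the groups alone. Leaving out an array gave 0.00513% to 0.138%. In WT kidneys after cisplatin 2 were called, but 5 with array weights or the groups alone. The count was 2 to 5 when an array was left out. Of all genes 14.0% were called, 22% with array weights, 20.3% with the groups alone, and 7.53% to 20.7% with an array left out. In KO kidneys 3 were called, but 4 with median centring or array weights and 2 with the filter. The count was 3 to 6 when an array was left out. The share of all genes was 27.9%, 28% with median centring, 27.5% with array weights and 40.8% with the filter. Leaving out an array gave 20.1% to 28.9%. For the interaction 0 were called, but 1 with array weights, and 0 to 2 when an array was left out. Of all genes 0.0308% were called, 0.323% with array weights, and 0% to 1.73% with an array left out. For the averaged genotype difference 1 was called, but 0 with quantile normalization or the replicate block. The count was 4 with array weights, 2 with the filter, and 0 to 7 when an array was left out. The share of all genes was 0.103%, 0.0769% with quantile normalization, 0.0359% with the block, 0.492% with array weights and 0.32% with the filter. Leaving out an array gave 0.0205% to 1.69%.

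Deviations of arrays with the same replicate number correlated across genes at -0.11 to 0.09. Arrays with different numbers were not compared, so this does not decide whether the numbers pair the arrays. The replicate block changed no other count (0, 1, 2, 3 and 0). All reversals concerned differences that were not called. With quantile normalization the log2 difference of AKI from control in WT kidneys was 0.028 for Clock and -0.031 for Per1, and in KO kidneys -0.0069 for Per2. With median centring it was -0.054 for Per1 in WT and -0.039 for Per2 in KO kidneys, and the median over all genes moved to -0.07 in KO and -0.09 in WT kidneys, against 0.06 as deposited. The interaction for Dbp was 0.016 with median centring and 0.77 with array weights. When an array was left out, the differences of AKI from control ranged from -0.93 to 0.21 for Arntl, -0.13 to 0.37 for Clock and -0.21 to 0.47 for Per2 in KO kidneys and from -0.10 to 0.35 for Per1 in WT kidneys. The difference of KO AKI from WT AKI for Ciart ranged from -0.35 to 0.24, and the interaction from -1.11 to 1.36 for Dbp, -0.63 to 0.052 for Per2 and -0.35 to 0.83 for Per3. Apart from what its construction shows, the cause of each change was not tested. The number of arrays and, for Npas2, Per1 and Ciart, signals near background limit the precision.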

Other observations

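Deviations of the arrays from their group means were compared with those of Arntl over the 7431 genes that lay above background on all arrays and varied. Over 12 arrays in 4 groups, Pearson's r was highest for Cachd1 (0.93), Apoc3 (0.92) and Lgalsl (0.92) and lowest for C1qa (-0.95), Mrc1 (-0.94) and Zmat2 (-0.93). Without KO AKI replicate 2 these were 0.88, 0.86 and 0.85, and -0.91, -0.88 and -0.90. Among the clock genes, r with Arntl was 0.74 for Clock, -0.68 for Nr1d1, -0.76 for Dbp, -0.66 for Per3 and -0.59 for Nr1d2. Without that array it was 0.50 for Clock, -0.84 for Nr1d1, -0.48 for Dbp, -0.20 for Per3 and -0.17 for Nr1d2. Arntl itself lay above background on 8 of the 12 arrays and on no WT control array, so part of its deviations are signals within background. The named genes outside the clock are the extremes of the 7431. The points share arrays and scaling, and no p is given.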
